A study of Bos taurus with 14 samples.

Results

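The miR-25, miR-32, miR-92 and miR-363 family was followed through small RNA libraries of bovine blood by its 5 mature names, bta-miR-25, bta-miR-32, bta-miR-92a, bta-miR-92b and bta-miR-363. These were 5 of the 932 bovine and human names found in the series, they were chosen by name alone, and all 5 had reads in each of the 14 libraries. The donors were 4 dry Holstein cows with rumen cannulas, and each cow served as her own control. The cows were sampled first on forage (FD, 0% concentrate) and again after 1 week with 65% concentrate (high-grain diet, HG), a feeding model of subacute ruminal acidosis, in which the rumen turns too acid. Plasma gave 4 libraries on each diet (cows 1 to 4), and leucocytes, taken as the buffy coat of the same blood, gave 3 on each diet (cows 1, 3 and 4). Plasma, cleared of cells by a further spin, and leucocytes were extracted with different kits, so kit and sample type cannot be told apart. Since the diets followed each other in a fixed order, diet and time cannot be told apart either.

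The members of the family share their seed, the short stretch near the start of a microRNA that pairs with target messenger RNAs, so they can act on an overlapping set of targets. They are known for restraining regulators such as BCL2L11 (BIM) and CDKN1C, and the miR-17-92 cluster to which miR-92a belongs was among the earliest microRNA clusters tied to lymphocyte growth. The members are cut from separate precursors. miR-92a and miR-25 are known to be abundant in red blood cells as well as in white cells.

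In the cattle annotation of RefSeq (ARS-UCD2.0, used for names and neighbours only), MIR25 lay inside MCM7, a gene of the DNA replication helicase, beside MIR106B and MIR93, and MIR32 lay inside TMEM245, which codes for a membrane protein. MIR92A-1 closed the cluster with MIR17, MIR18A, MIR19A, MIR20A and MIR19B, while MIR92A-2 and MIR363 stood together with MIR106A, MIR18B, MIR20B and MIR19B-2, and MIR92B had no microRNA neighbour within 2 kb. On the UMD3.1 assembly used for the deposited files, bta-miR-25 was placed on chromosome 25 from 36892500 to 36892521 (plus strand), bta-miR-32 on chromosome 8 from 100305165 to 100305187 (minus strand), bta-miR-92b on chromosome 3 from 15480785 to 15480806 (minus strand) and bta-miR-363 on chromosome X from 17917752 to 17917772 (minus strand). bta-miR-92a had 1 row, placed on chromosome 12 from 66227302 to 66227323 (plus strand), and reads from its 2 loci cannot be told apart.

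The reads assigned to microRNA names numbered 376589 to 4464702 per library in plasma and 21764578 to 66070772 in leucocytes, so leucocyte values carried the smaller counting error. Reads assigned to microRNA names made up 39.3 to 58.1% of the reads analysed in plasma on FD and 59.3 to 72.0% on HG. This share moved with the diet in plasma without overlap, and its part in the plasma results was not tested. A read that fits several names or loci was divided among them in the estimated counts used for testing, so bta-miR-25 kept 0.5 of its reads and bta-miR-92a 0.252 to 0.262, while bta-miR-32 and bta-miR-363 kept all. Levels between members are therefore compared here in undivided reads per 1e6 assigned reads (RPM), and levels between diets in counts per 1e6 after TMM scaling of the estimated counts (CPM). The mature forms are 21 to 23 nt long, so no correction for length applies.

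The leucocyte microRNAs used as a check of the labels (6 of 6 detected, among them miR-142, miR-150 and miR-223) summed to 2.99 to 4.80% of reads in leucocytes and 2.13 to 3.13% in plasma. As shares of the estimated counts they summed to 2.29 to 3.41% in leucocytes and 1.64 to 3.48% in plasma. The ranges overlapped on both scales, so this list did not separate the sample types. The erythroid list (miR-451, miR-144 and miR-486, 3 of 3 detected) summed to 29.8 to 42.6% in leucocytes and 5.66 to 18.5% in plasma, and liver-derived miR-122 to 0.517 to 6.17% in plasma and no more than 0.00757% in leucocytes. The buffy coat libraries thus carried many reads of names typical of red cells. Bulk libraries cannot separate fewer cells of a type from less RNA per cell.

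As a group, the members took 4.49% ± 1.08 (SD, n = 8 libraries) of the reads assigned in plasma and 6.30% ± 1.15 (n = 6) in leucocytes. bta-miR-92a and bta-miR-25 held nearly all of it. bta-miR-92a, which is known for limiting vessel growth in endothelium as well as for its place in blood cells, reached 31417 ± 9173 RPM in plasma and 29544 ± 4669 RPM in leucocytes, with a median rank of 7.5 and 8 among the bovine names. bta-miR-25, the partner of miR-93 and miR-106b, reached 12539 ± 4416 RPM in plasma and 32489 ± 7496 RPM in leucocytes, with a median rank of 25 and 7.

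The other 3 members were far lower. bta-miR-32, made from an intron of its host gene, had 672 ± 214 RPM in plasma and 855 ± 272 RPM in leucocytes. bta-miR-92b, which differs from bta-miR-92a outside the seed, had 187 ± 94.4 RPM in plasma and 90.4 ± 13.4 RPM in leucocytes, and bta-miR-363, from the X-linked cluster, 55.0 ± 48.4 RPM and 64.6 ± 16.2 RPM. The ranges of bta-miR-25, bta-miR-32 and bta-miR-92b did not overlap within either sample type. bta-miR-92b and bta-miR-363 overlapped in range in plasma and in leucocytes, yet bta-miR-92b was above bta-miR-363 in 8 of 8 plasma and 6 of 6 leucocyte libraries.

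**Figure D1:**
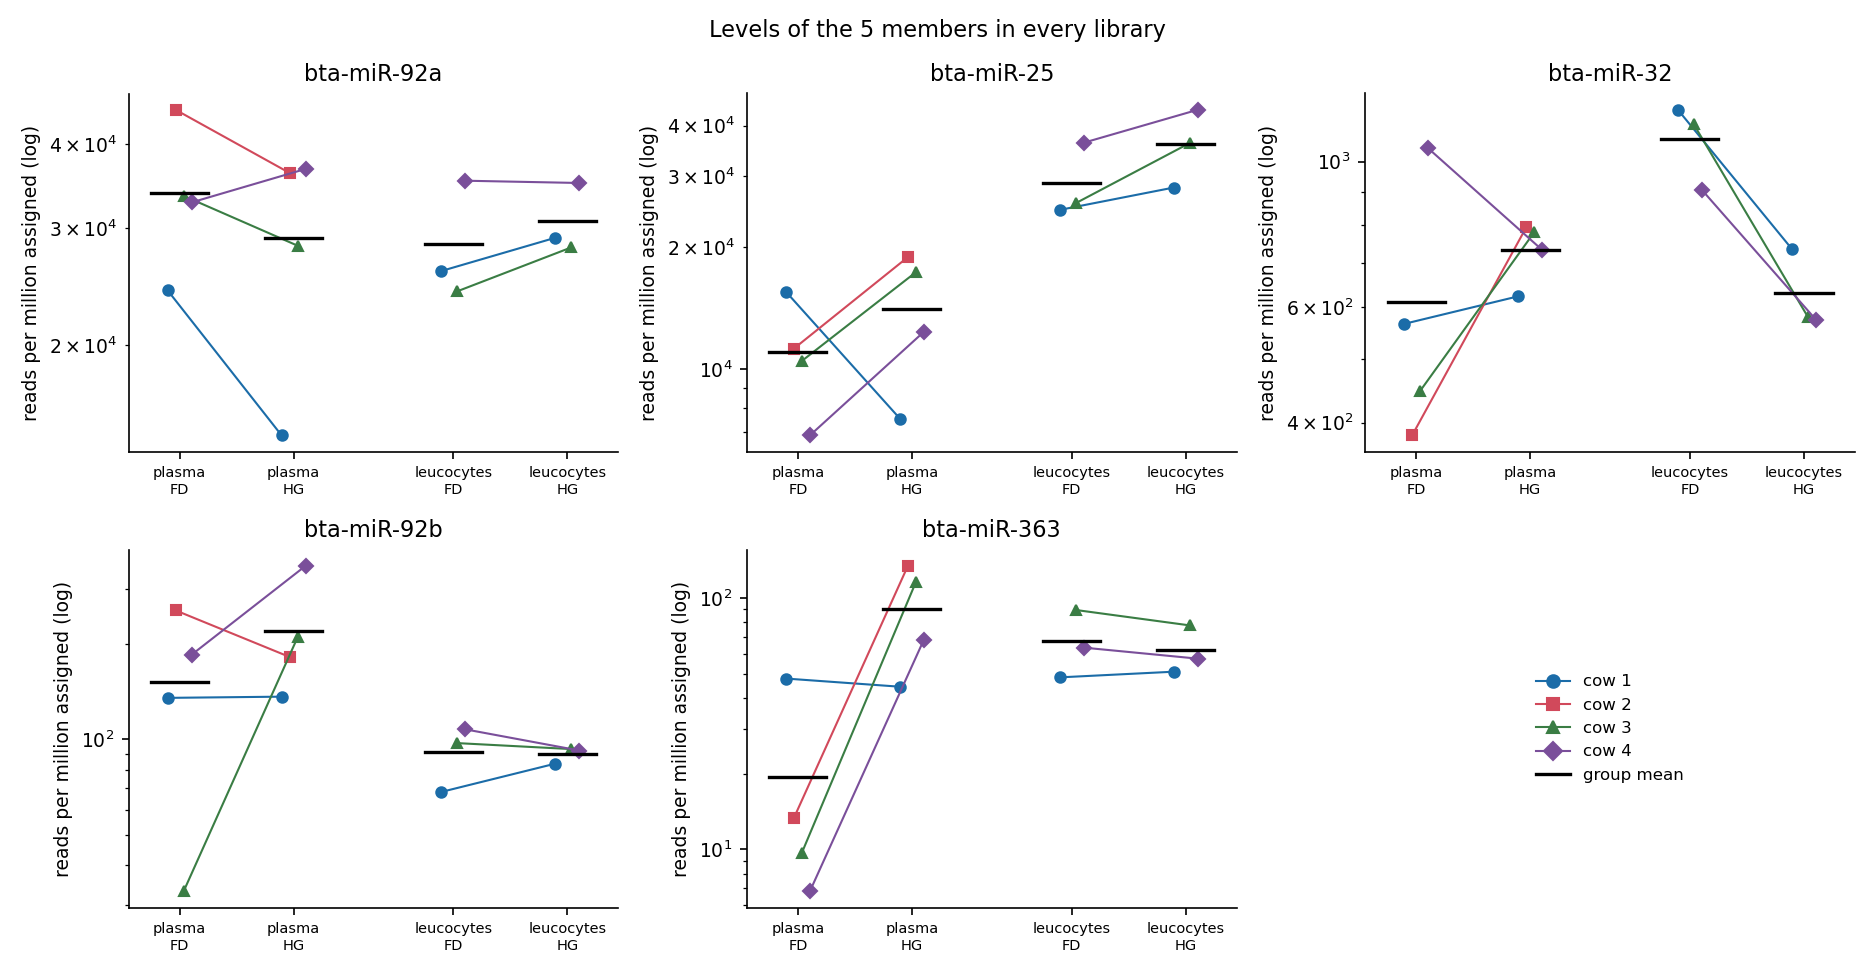
Undivided reads per 1e6 assigned reads (RPM) (log axis, a separate range for each member) of the 5 members in plasma and leucocytes on the forage (FD) and high-grain (HG) diets. Points of the same colour and shape joined by a line are the same cow, and black bars are group means. bta-miR-25 sits higher in all 6 leucocyte libraries (24761 to 43795 RPM) than in all 8 plasma libraries (6852 to 18929 RPM), and bta-miR-32 goes down on HG in each of the 3 cows with leucocyte libraries.

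The balance between the leading members differed between plasma and leucocytes. Both are counted in the same library, so a ratio does not depend on scaling between libraries. In plasma on FD, the reads of bta-miR-92a over those of bta-miR-25 came to 1.55 in cow 1, 4.01 in cow 2, 3.20 in cow 3 and 4.78 in cow 4. On HG the ratio was 1.94, 1.91, 1.62 and 2.97 in the same order. In leucocytes it was 1.04, 0.937 and 0.972 on FD and 1.03, 0.774 and 0.800 on HG in cows 1, 3 and 4. All 8 plasma libraries thus had more bta-miR-92a than bta-miR-25, the leucocyte libraries had about as much of either, and the sample types did not overlap. Between diets, the plasma ratios overlapped and were lower on HG in 3 of 4 cows (log2 change -0.60 ± 0.64, SD; exact two-sided sign-flip permutation p = 0.25, with 0.125 the smallest p that 4 cows allow). In leucocytes it was lower in 3 of 3 cows (-0.19 ± 0.15; exact permutation p = 0.25, the smallest that 3 cows allow).

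**Figure D2:**
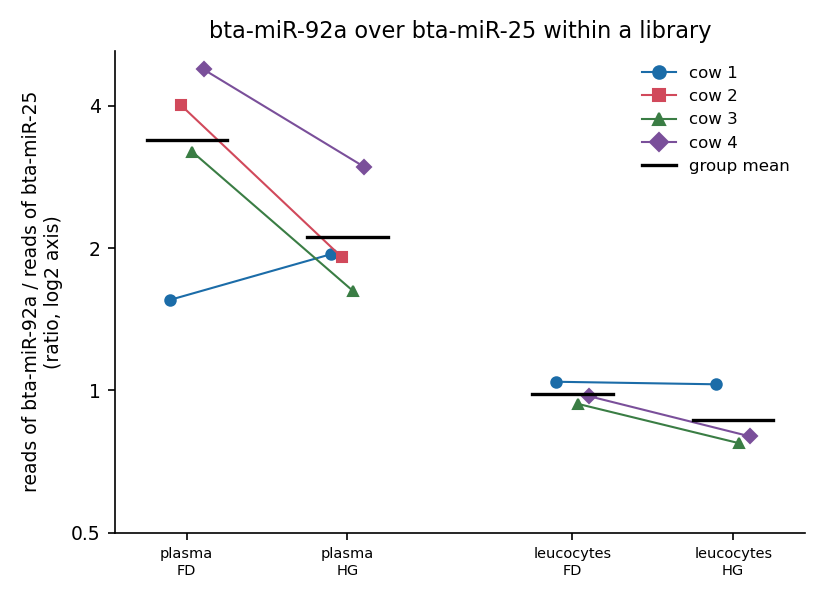
Ratio of bta-miR-92a reads to bta-miR-25 reads within each library (log2 axis) by sample type and diet. Points joined by a line are the same cow and black bars are group means. Plasma libraries range from 1.55 to 4.78 and leucocyte libraries from 0.774 to 1.04.

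In shares of the family total, bta-miR-92a held 69.5% ± 8.38 of the undivided reads in plasma and 47.1% ± 2.93 in leucocytes, and bta-miR-25 28.3% ± 8.22 and 51.2% ± 3.39. In the estimated counts, in which bta-miR-92a is divided most, these were 52.7% ± 9.58 and 30.9% ± 2.32 for bta-miR-92a and 41.1% ± 9.43 and 64.8% ± 3.58 for bta-miR-25. The shift of the balance towards bta-miR-25 in leucocytes was present in either count.

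Leucocytes were then compared with plasma on each diet, to ask which members were concentrated in cells. bta-miR-25 was higher in leucocytes on both diets. Its CPM, scaled over all 14 libraries, ran from 4405 to 7351 in plasma and from 21815 to 24431 in leucocytes on FD, and from 4228 to 7184 and from 27028 to 38017 on HG. The log2 fold change was 1.88 ± 0.25 (SE) on FD (edgeR quasi-likelihood test, Benjamini-Hochberg adjusted p = 0.000132) and 2.48 ± 0.26 on HG (adjusted p = 1.35e-05). This call held under each of the 14 alternative settings on either diet, with log2 fold changes from 1.20 to 2.95.

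For the other members the calls depended on the diet, the scaling or a single cow. bta-miR-363 was higher in leucocytes on FD (85.1, 159 and 85.4 CPM, against 39.2, 17.4, 12.8 and 8.7 in plasma; log2 fold change 2.53 ± 0.57; edgeR adjusted p = 0.00384). On HG it reached 97.8, 132 and 99.6 CPM against 49.7, 102, 78.1 and 62.5, the groups overlapped, and the difference of 0.59 ± 0.55 did not pass (adjusted p = 0.409). bta-miR-32 was higher on FD (1.30 ± 0.39; adjusted p = 0.0158) although plasma of cow 4, at 1348 CPM, lay above leucocytes of the same cow at 1219. With cow as a block over cows 1, 3 and 4 the call was lost (1.21; edgeR adjusted p = 0.0697), and without the block the same cows gave 1.15 (adjusted p = 0.0483). On HG its difference was 0.86 ± 0.38 (adjusted p = 0.0916).

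bta-miR-92a was called on HG and not on FD, with 0.17 ± 0.33 on FD (adjusted p = 0.687) and 1.20 ± 0.33 on HG (adjusted p = 0.0108). bta-miR-92b did not pass on either diet (0.13 ± 0.52, adjusted p = 0.847, and -0.24 ± 0.52, adjusted p = 0.714). Thus 3 of 5 members were called higher in leucocytes on FD and 2 of 5 on HG, and bta-miR-25 was the member called on both. Without cow 3, 1 member was called on either diet, bta-miR-25, as bta-miR-32 (1.11) and bta-miR-363 (2.01) lost their calls on FD and bta-miR-92a (1.19) on HG. Without a cow, bta-miR-363 ran from 2.01 to 4.04 on FD. Among all 800 names, 23.2% were called higher on FD and 21.9% on HG (43.4% and 39% in either direction). The CPM ranges lay apart, with leucocytes higher, for 2 of 5 members on FD (bta-miR-25 and bta-miR-363) and 3 of 5 on HG (bta-miR-25, bta-miR-32 and bta-miR-92a), against 37.5% and 35% of all names.

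The scaling mattered here, because the median log2 fold change of all names was 1.42 on FD and 0.59 on HG under TMM, and 0.81 and -0.53 when libraries were scaled by size alone. The calls over all names split into 186 higher and 161 lower on FD under TMM, and 127 and 186 under library size alone. On HG they split into 175 and 137, against 81 and 223. Under library size alone, bta-miR-25 kept its call (1.24 ± 0.33 on FD and 1.20 ± 0.33 on HG). The signs of bta-miR-92a and bta-miR-92b turned on FD and those of bta-miR-92a, bta-miR-32 and bta-miR-363 on HG.

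**Figure D3:**
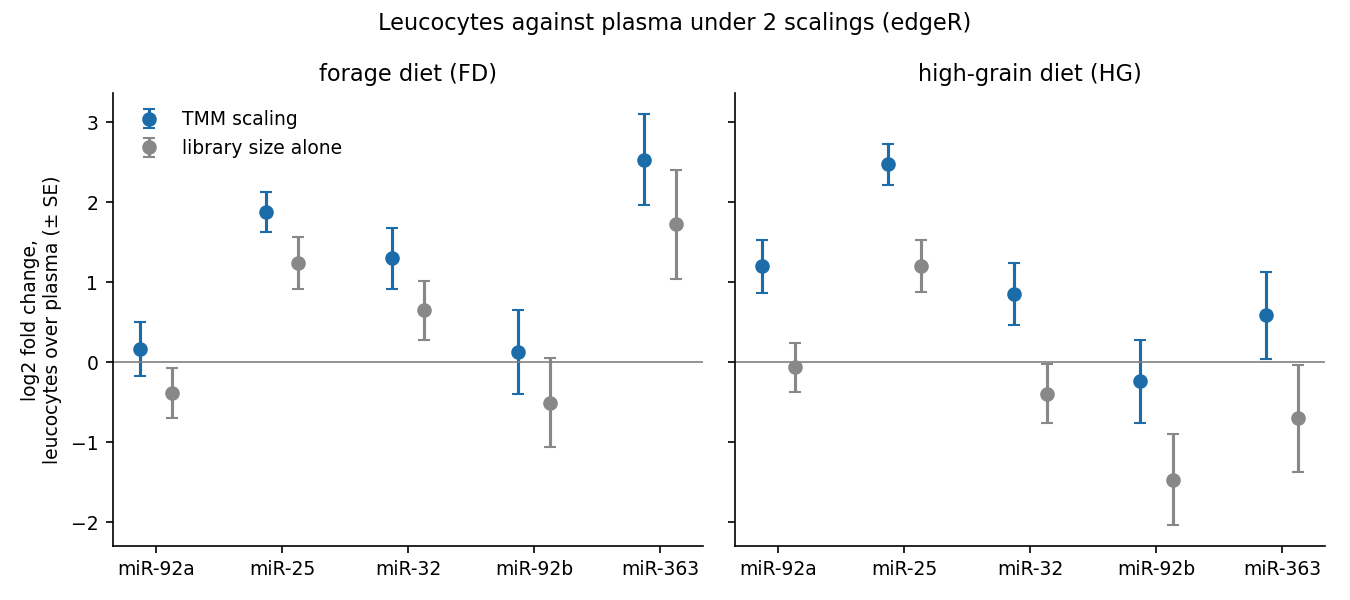
Fitted log2 fold change of leucocytes over plasma for each member on the forage and the high-grain diet, with TMM scaling (blue) and with library size alone (grey). Points are edgeR estimates and bars are ± SE. bta-miR-25 lies above 1 in all 4 estimates, while bta-miR-92a runs from -0.38 to 1.20.

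The 11 names that neighbour the members in their clusters, which include the growth-promoting miR-17, miR-20a and miR-19 names, were compared in the same fits. On FD, 11 of 11 passed the test as higher, with log2 fold changes from 1.46 to 4.06, and on HG 10 of 11, from 2.07 to 3.45. Of all 800 names, 23.2% passed as higher on FD and 21.9% on HG. bta-miR-93 and bta-miR-106b, the immediate neighbours of bta-miR-25, had 2.16 ± 0.26 and 2.70 ± 0.36 on FD, and 2.55 ± 0.26 and 2.77 ± 0.36 on HG. With library size alone, 7 and 4 of the 11 passed, all higher, and without cow 3, 5 passed on FD and 8 on HG. Over all names, 127 and 81 of 800 passed as higher with library size alone, and 59 and 107 of 767 without cow 3. bta-miR-92a had a smaller estimate than each of these 11 neighbours on either diet.

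The second question was whether the members changed with the diet. In leucocytes, bta-miR-32 fell on HG. It had 1199, 1139 and 905 RPM on FD and 735, 579 and 574 RPM on HG in cows 1, 3 and 4, from 79240, 64236 and 19706 reads and 39422, 22652 and 15809 reads. In CPM the groups overlapped, as the FD library of cow 4 (905), and no other, fell below an HG library (cow 1, 959). In RPM all 3 HG values were below all 3 FD values, a pattern that was not counted over all names. The log2 fold change was -0.78 ± 0.12 (SE; edgeR adjusted p = 0.00576), lower in 3 of 3 cows. It was the sole member among the 15 of 782 names called (1.92%), of which 12 were lower (1.53%). A decrease in every cow was seen in 19.3% of the names.

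The reads of bta-miR-32 over those of bta-miR-25 were 0.0484, 0.0443 and 0.0249 on FD and 0.0261, 0.0160 and 0.0131 on HG, a log2 change of -1.10 ± 0.32 (SD, n = 3 cows). Each cow showed the decrease, by 0.89 to 1.47 on the log2 scale (exact permutation p = 0.25, the smallest that 3 cows allow). The call rested on the pairing by cow and on 2 of the cows. Without cow as a block the adjusted p was 0.732, without cow 1 it was 0.100 and without cow 3 it was 0.992, each with the log2 fold change between -0.65 and -0.79, and the DESeq2 Wald test gave an adjusted p of 9.43e-05.

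bta-miR-25 went the other way. Its CPM was 16195, 15728 and 18142 on FD and 18330, 21707 and 22284 on HG, so the groups did not overlap and each of the 3 cows was higher. Such separation, with HG higher, was seen for 7.29% of the 782 names. The log2 fold change of 0.31 ± 0.12 did not pass (edgeR adjusted p = 0.216). bta-miR-93 and bta-miR-106b, its cluster neighbours, had 0.30 ± 0.12 (adjusted p = 0.270) and 0.13 ± 0.13 (adjusted p = 0.719), and the reads of bta-miR-25 over bta-miR-93 stayed between 2.15 and 3.11 in the 6 libraries.

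The remaining members showed small differences in leucocytes. bta-miR-92a had 0.12 ± 0.12 (adjusted p = 0.722) and was higher in 3 of 3 cows, a pattern seen in 19.8% of names. bta-miR-363 had -0.09 ± 0.15 (adjusted p = 0.861) and bta-miR-92b less than 0.01 in either direction (SE 0.16). None of the 11 cluster neighbours passed, with log2 fold changes from -0.37 to 0.30. The erythroid list took 40.7, 38.3 and 29.8% of reads on FD and 42.6, 36.1 and 33.1% on HG in cows 1, 3 and 4, and the leucocyte list 4.29, 4.04 and 4.77% and 3.51, 4.80 and 2.99%. The vascular and platelet list (miR-126, miR-143 and miR-145 names, 4 of 4 detected) took 0.0589, 0.130 and 0.277% on FD and 0.0568, 0.0761 and 0.157% on HG, and miR-122 0.00167, 0.00263 and 0.00757% and 0.00233, 0.00253 and 0.00412%. The vascular and platelet list was lower on HG in 3 of 3 cows, as bta-miR-32 was, and the other lists went up in some cows and down in others. The part of these cell types in the result was not tested.

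**Figure D4:**
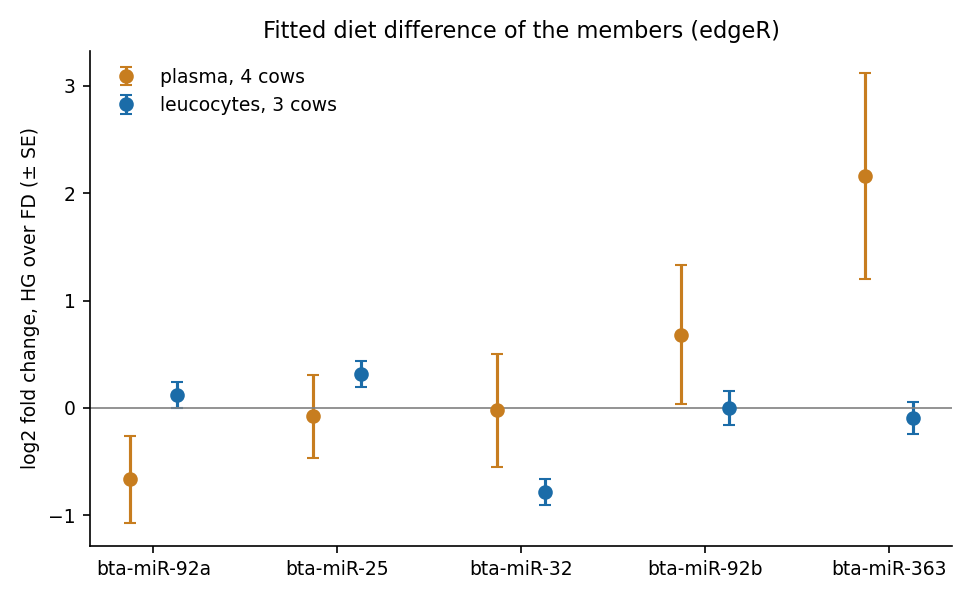
Fitted log2 fold change of the high-grain over the forage diet for each member in plasma (orange, 4 cows) and leucocytes (blue, 3 cows). Points are edgeR estimates with cow as a block and bars are ± SE. Only bta-miR-32 in leucocytes passed the test, and bta-miR-363 in plasma has the largest estimate, 2.16 ± 0.96.

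In plasma no member passed the test, and none of the 538 names did (background 0%), although 55 names had an unadjusted p under 0.05 and the DESeq2 Wald test called 12. bta-miR-363 had the widest difference. It had 18, 19, 17 and 21 reads on FD and 198, 131, 123 and 232 reads on HG in cows 1 to 4. The number of reads on FD was thus nearly the same in 4 libraries whose depth differed several-fold, and each HG library held more. The leucocyte list went in plasma from 2.13, 2.17, 2.73 and 2.39% of reads on FD to 3.13, 2.82, 2.96 and 3.05% on HG in cows 1 to 4, higher in 4 of 4 cows without overlap. As shares of the estimated counts it was 1.64, 1.84, 2.57 and 2.25% on FD and 3.48, 2.37, 2.51 and 2.64% on HG, higher in 3 of 4 cows with overlapping groups. Its part in the difference of bta-miR-363 was not tested.

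In CPM this was 46.5, 20.6, 16.9 and 13.5 on FD and 66.9, 135, 104 and 86.3 on HG. The groups did not overlap, which, with HG higher, held for 4.09% of the 538 names, and 4 of 4 cows were higher, which held for 9.11%. The log2 fold change was 2.16 ± 0.96 (edgeR adjusted p = 0.452), with adjusted p from 0.139 to 0.990 over the 13 alternatives and log2 fold changes from 1.98 to 2.67. In RPM, however, the FD library of cow 1, the shallowest of all, had 47.8 and the HG library of the same cow 44.3, so cow 1 was not higher on that scale and the groups overlapped. The other 3 cows went from 13.3, 9.68 and 6.79 to 134, 116 and 68.2 RPM.

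**Figure D5:**
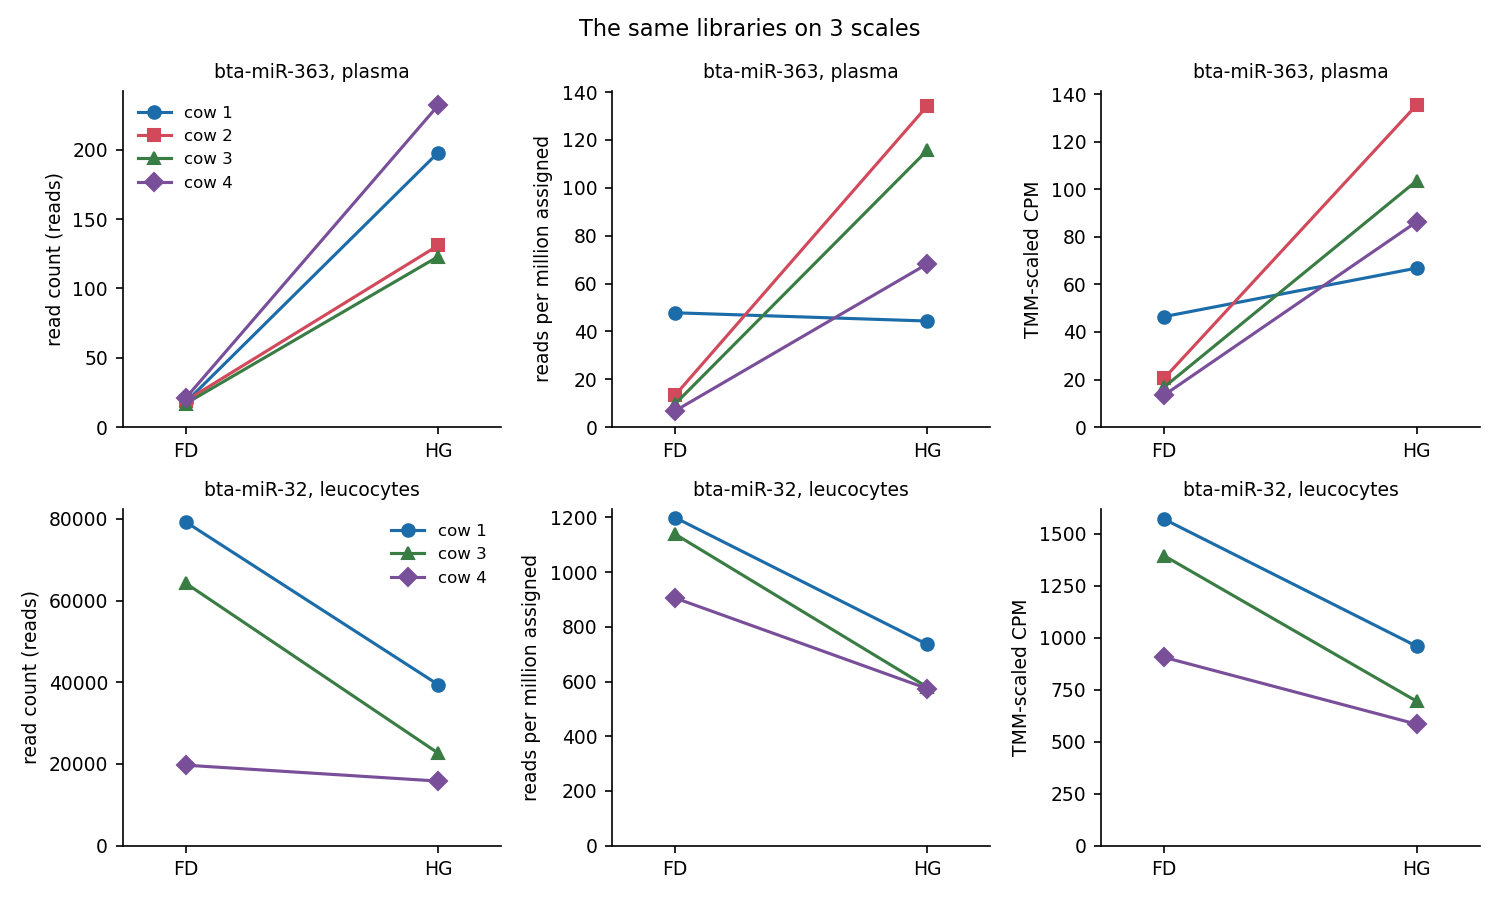
bta-miR-363 in plasma (top) and bta-miR-32 in leucocytes (bottom) on the forage (FD) and high-grain (HG) diets as read counts, reads per 1e6 assigned reads and TMM-scaled CPM. Lines join the libraries of a cow and axes start at 0. bta-miR-363 is higher on HG in 4 of 4 cows in reads and CPM but in 3 of 4 in reads per 1e6, and bta-miR-32 is lower in 3 of 3 cows on each scale.

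Ratios within libraries, which need no scaling, were higher on HG in 4 of 4 or 3 of 4 cows for bta-miR-363, depending on the partner. Over bta-miR-92a, which is partly made from the same X-linked transcript, it was higher on HG in 4 of 4 cows (log2 change 2.81 ± 1.49, SD; exact permutation p = 0.125, the smallest that 4 cows allow). Over bta-miR-20b, another product of that cluster, the ratio was 9.0, 9.5, 4.25 and 10.5 on FD and 39.6, 18.7, 30.8 and 58.0 on HG, with 30 reads of bta-miR-20b in all 8 libraries. Over bta-miR-106a, also of that cluster, it was higher in 3 of 4 cows and lower in cow 1, from 3.0, 1.9, 1.06 and 3.5 to 2.51, 5.04, 3.73 and 11.6 (log2 change 1.17 ± 0.97, SD; exact permutation p = 0.25). bta-miR-106a and bta-miR-18b of the same cluster had log2 fold changes of 1.05 ± 0.95 and 0.50 ± 1.10, and bta-miR-20b -0.07 ± 1.03. The ratio to bta-miR-20b did not overlap between the diets, whereas those to bta-miR-92a and bta-miR-106a did.

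In estimated counts, the share of bta-miR-363 in the family total was 0.130% ± 0.130 on FD and 0.574% ± 0.131 on HG in plasma. The difference was 0.444 percentage points ± 0.199 (SD, n = 4 cows, exact permutation p = 0.125). In leucocytes the share was 0.300% ± 0.120 on FD and 0.235% ± 0.0587 on HG. In undivided reads it was 0.0450% and 0.204% in plasma, and 0.119% and 0.0932% in leucocytes. On average, bta-miR-363 thus made up less of the family in plasma than in leucocytes on FD, and more on HG.

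bta-miR-92a was lower on HG in 4 of 4 cows in CPM, from 6037, 17609, 14860 and 16469 to 5784, 9291, 6481 and 11791. The ranges overlapped through the FD library of cow 1, and the log2 fold change of -0.67 ± 0.41 did not pass (edgeR adjusted p = 0.696). A decrease in every cow was seen in 2.6% of the names. In RPM, cow 4 was higher on HG (36756 against 32744). bta-miR-92b was higher in 4 of 4 cows in CPM (131.7, 163.7, 57.6 and 367.5 on FD, 206, 184, 189 and 435 on HG; log2 fold change 0.68 ± 0.65; adjusted p = 0.938). That order rested on the division of reads in cow 2, since the FD library of this cow kept 0.412 of its 366 reads. In RPM, cow 2 was lower on HG (182 against 256). An increase in every cow in CPM was seen in 9.11% of the names.

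bta-miR-25 and bta-miR-32 had log2 fold changes of -0.08 ± 0.39 (adjusted p = 0.960) and -0.02 ± 0.53 (adjusted p = 0.988) in plasma, each higher in 2 of 4 cows, and their signs turned under several settings. A difference of the size fitted for bta-miR-32 in leucocytes is within 2 SE of this plasma estimate.

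Whether the diet difference itself differed between leucocytes and plasma was tested in the fit over all 14 libraries. That fit held no cow term, so it did not use the pairing by cow. No member passed, nor did any of the 800 names (background 0%), with 86 at an unadjusted p under 0.05 and 11 called by the DESeq2 Wald test. The estimate, leucocytes minus plasma, was -1.95 ± 0.79 for bta-miR-363 (edgeR adjusted p = 0.416), 1.03 ± 0.47 for bta-miR-92a (adjusted p = 0.445), 0.60 ± 0.36 for bta-miR-25 (adjusted p = 0.583), -0.44 ± 0.55 for bta-miR-32 (adjusted p = 0.968) and -0.37 ± 0.74 for bta-miR-92b (adjusted p = 0.9998). With cow as a block over cows 1, 3 and 4, none of the 797 names tested passed either. The fall of bta-miR-32 is accordingly not shown to be particular to leucocytes.

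The opposite arms of the hairpins, the passenger strands that are mostly discarded, were read under human names only. hsa-miR-25-5p had 103 reads in plasma and 1641 in leucocytes. Of the reads of both arms together (with bta-miR-25), this was 0.0591% (95% Wilson interval 0.0488 to 0.0717) and 0.0205% (0.0195 to 0.0215). In plasma, 91 of the 103 came from the HG library of cow 4, and no other plasma library had more than 5. hsa-miR-92a-1-5p, which comes from the chromosome 12 locus alone, had 11 and 305 reads, or 0.00225% and 0.00409% of its reads and those of bta-miR-92a together. hsa-miR-363-5p had 32 reads in leucocytes and no read in 8 plasma libraries, where 3 reads would be 0.672 to 7.97 RPM. This was 0.188% of the reads of both arms together (with bta-miR-363) in leucocytes (95% Wilson interval 0.133 to 0.265). In plasma, 0 beside 759 reads of bta-miR-363 had an upper bound of 0.504%.

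Finally, the bovine names whose CPM followed each member most closely were listed as a description, since all points share libraries and depth. Only names with at least 10 reads in every library were compared, 198 over the 14 libraries and 408 over the leucocyte libraries. Over the 14 libraries, bta-miR-25 was followed by bta-miR-15b (Pearson r = 0.98), bta-miR-93 (0.97) and bta-miR-185 (0.97). In the same libraries bta-miR-92a was followed by bta-miR-486 (0.96), bta-miR-2285bf (0.89) and bta-miR-2285bc (0.86). bta-miR-363 was followed by bta-miR-532 (0.95) and bta-miR-331-5p (0.94), bta-miR-32 by bta-miR-18a (0.88), and bta-miR-92b had no name above 0.56. Over the 6 leucocyte libraries, bta-miR-32 was followed by bta-miR-1277 (0.99), bta-miR-6524 (0.99) and bta-miR-29c (0.98), and bta-miR-363 by bta-miR-2387 (0.96) and its cluster neighbour bta-miR-20b (0.91). bta-miR-20b and bta-miR-106a had too few plasma reads to be compared over the 14 libraries. The leading members thus kept company with different names (members were left out of each other's lists).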

How the data were processed

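Libraries of plasma and leucocytes were made by the authors with a small RNA kit, demultiplexed with bcl2fastq 2.20, trimmed with Skewer and mapped with sRNAbench (cow genome UMD3.1, miRBase names of cattle and human) (at least 15 nt, mean PHRED of 20 or more, up to 2 mismatches). The deposited library files give a read count per name, in which a read counts in full at each name, and an estimated count, in which it is divided. The authors' tables of values divided by size factors were not used.

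Estimated counts were rounded and tested with edgeR 4.0.16 in R 4.3.3 (quasi-likelihood, robust, TMM), for names with at least 10 in total, with cow plus diet within a sample type and with a mean per sample type and diet over 14 libraries. p-values were Benjamini-Hochberg adjusted over all names, with calls under 0.05. DESeq2 1.42.0, other scalings, filters and counts, and leaving out each cow were alternatives. The fits were also run on simulated data that held no cow effect, so that run cannot show how the cow block performs. Ratios and shares within libraries were compared by exact sign-flip permutation over cows, unadjusted. Intervals and limits (a count of 0 allows 3 reads) cover counting error only.

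The libraries of a cow are from the same animal. Cow numbers came from the labels, and the authors' supplementary read counts, listed by cow, matched the libraries in 504 of 504 plasma and 198 of 198 leucocyte values. Deviations from the diet means correlated within cows by -0.173 to 0.119 in plasma and by 0.397 to 0.617 in leucocytes. Between different cows they correlated by -0.229 to 0.263 in plasma and by -0.557 to 0.257 in leucocytes. The plasma profiles thus did not themselves show the pairing.

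Members and neighbours (names of the clusters) were named by rule. The marker lists were chosen with earlier results of these data known. Marker lists are given as shares of undivided reads, although shares of estimated counts had been planned; both were computed. Names most like a member were the 3 with the highest Pearson r of log2 CPM, among names with at least 10 reads in every library compared.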

Additional observations from a re-analysis of the deposited data

Results flagged for a closer look

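Groups of 4 plasma libraries were searched for a library that lay far from the other 3 by Dixon's criterion. Of 36 groups 7 were named. Chance would give about 1.8 in independent groups of values without a cap, which these are not. Many groups share libraries and reads. The estimated count over reads cannot exceed 1, so a library below 3 others at 1 is always named. bta-miR-32 had 2085 CPM in cow 4 on FD, against 550 to 780 in the other cows. bta-miR-92b had 435 CPM in cow 4 on HG, against 184 to 206. bta-miR-363 had 47.8 RPM in cow 1 on FD, the shallowest library, against 6.79 to 13.3. There it made up 0.324% of the family in estimated counts, against 0.0525 to 0.0761%. bta-miR-32 made up 7.41% of the family in estimated counts in cow 1 on HG, against 4.01 to 4.58%. Family shares in undivided reads were not searched. On that scale bta-miR-363 had 0.118% against 0.0166 to 0.0234%, and bta-miR-32 2.71% against 1.41 to 1.67%. The estimated count of bta-miR-92b was 0.412 of its reads in cow 2 on FD, against 0.997 to 1, and 0.970 in cow 4 on HG, against 1 in each of the others.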

How the results depend on the processing

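Of 724 alternative values, 647 kept their direction and their side of the threshold (or stayed within the spread), 28 changed sign, 9 lost a call, 5 gained one and 35 counts or shares moved beyond 1.5 times or the spread. The causes were not tested except where stated.

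All names. The DESeq2 Wald test called 12 names in plasma, 25 in leucocytes and 11 for the difference between the sample types, against 0, 15 and 0. In leucocytes, DESeq2 size factors gave 9 and identical names taken once gave 8. Leaving out a cow gave 0 to 102 in leucocytes (8 without cow 1, 0 without cow 3, 102 without cow 4), 113 to 325 between sample types on FD and 167 to 301 on HG, lowest without cow 3.

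Pairing. Without the cow block, 0 names and 0 members were called in leucocytes, and bta-miR-32 kept its direction (-0.79). With the block between sample types (cows 1, 3 and 4), bta-miR-32 on FD lost its call (1.21; edgeR adjusted p = 0.0697). The block changed no other member's call. The fit of cows 1, 3 and 4 without the block, and ratios in estimated counts or without a cow, were added after seeing the data, and each ratio stayed within its SD.

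Members called. Leaving out a cow gave 0 to 2 in leucocytes between diets (0 without cow 1 or 3, and bta-miR-25 and bta-miR-32 without cow 4), 1 to 3 between sample types on FD and 1 to 2 on HG (1 without cow 3). Library size alone left 1 on FD and 1 on HG, bta-miR-25. Over the cows left out, log2 fold changes in leucocytes were 0.26 to 0.43 for bta-miR-25, -0.86 to -0.65 for bta-miR-32, -0.10 to 0.10 for bta-miR-92b and -0.13 to 0.00061 for bta-miR-363. Between sample types on FD they were 1.11 to 1.996 for bta-miR-32, -0.31 to 0.85 for bta-miR-92b and 2.01 to 4.04 for bta-miR-363, and on HG 1.19 to 1.52 for bta-miR-92a and -0.36 to 0.13 for bta-miR-92b. The calls of bta-miR-32 and bta-miR-363 on FD and bta-miR-92a on HG were lost without cow 3.

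Scaling and filters between sample types. Library size alone gave 0.65 for bta-miR-32, -0.38 for bta-miR-92a, -0.50 for bta-miR-92b and 1.72 for bta-miR-363 on FD, and -0.40 for bta-miR-32, -0.062 for bta-miR-92a and -0.70 for bta-miR-363 on HG. On HG, bta-miR-32 passed with DESeq2 size factors (1.07), the DESeq2 Wald test (1.07) and filterByExpr (1.17), and on FD bta-miR-92a passed with filterByExpr (0.76). filterByExpr gave 0.074 for bta-miR-92b on HG, and undivided counts -0.31 on FD. For the difference of the diet effect, library size alone gave -0.039 for bta-miR-25 and undivided counts 0.068 for bta-miR-92b.

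Estimates near 0. In plasma, bta-miR-25 changed sign with library size alone (0.34), no filter (0.0078) and undivided counts (0.038), and over cows left out ran from -0.17 to 0.040. bta-miR-32 did so with library size alone (0.38), no filter (0.059), filterByExpr (0.049), undivided counts (0.090) and identical names taken once (0.021), and ran from -0.29 to 0.35. bta-miR-106b ran from -0.043 to 0.58. In leucocytes bta-miR-92b was 0.0070 with undivided counts.

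Shares. Undivided reads gave 28.3% and 51.2% for bta-miR-25 (plasma and leucocytes), 1.61% and 1.44% for bta-miR-32, 69.5% and 47.1% for bta-miR-92a, 0.424% and 0.146% for bta-miR-92b, and 0.106% for bta-miR-363 in leucocytes. Adding human homologues gave 2.44% and 1.88% for bta-miR-32, 0.187% for bta-miR-92b and 0.137% for bta-miR-363 in leucocytes, by construction, since only bta-miR-25 and bta-miR-92a have one in the files.

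The values of bta-miR-363 in plasma on FD rest on 17 to 21 reads a library. With 3 or 4 cows, exact tests cannot pass 0.05.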

Other observations

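In the leucocyte HG library of cow 4, the erythroid list took 33.1% of undivided reads but more of the estimated counts (35.0%), while in the other 5 leucocyte libraries it took 18.3 to 25.3% of estimated counts and 29.8 to 42.6% of reads. Reads of these names were thus divided differently in this library. Without cow 4, the fall of bta-miR-32 in leucocytes had a log2 fold change of -0.86 (edgeR adjusted p = 1.41e-08). That fit rested on cows 1 and 3 alone and called 102 of 750 names, against 15 of 782 in the main fit. The part of the cow 4 library in this was not tested.

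The reads of bta-miR-92a over those of its cluster neighbour bta-miR-17-5p ran from 28.0 to 244 in plasma and from 19.2 to 35.8 in leucocytes. In plasma the ratio was lower on HG in 4 of 4 cows, by 0.76 ± 0.41 on the log2 scale (-0.76; exact permutation p = 0.125, the smallest that 4 cows allow). Over bta-miR-20a it was lower in 3 of 4.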
